A study of Mus musculus with 9 samples.

Results

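The genes described here serve thyroid hormone in the brown adipose tissue (BAT) of mouse embryos, a fat that makes heat. They are the deiodinase genes Dio1, Dio2 and Dio3, the nuclear receptor genes Thra and Thrb, and the membrane transporter gene Slc16a10. They were chosen by symbol, and all 6 were found among the 30915 gene entries of the expression table. The tissue came from untreated wild-type (WT) C57Bl6J embryos at E14.5, at E15.5 and at E16.5 (embryonic day), and the stages differed in age alone as far as the labels say. Each stage had 3 arrays, each from a separate preparation that pooled the BAT of 3 embryos, and 9 arrays in all. No array held tissue from 1 embryo, and the sources used here do not give the litters of the embryos.

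Thyroid hormone leaves the thyroid gland mostly as the prohormone thyroxine, and membrane carriers bring it into cells. In the cell the type 2 deiodinase turns thyroxine into the active hormone triiodothyronine, the type 3 deiodinase inactivates both, and the type 1 enzyme, known best from liver, kidney and thyroid, can do either. Triiodothyronine binds receptors in the nucleus that sit on DNA as partners of retinoid X receptors, with corepressors when the hormone is absent and coactivators when it is present. In adult brown fat of rodents, noradrenaline raises the type 2 deiodinase through cyclic AMP, and the triiodothyronine made there supports the uncoupling protein gene Ucp1.

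RefSeq promoter windows of 300 bases, from 250 before to 50 after a transcription start, were found for 5 of the 6 genes. Shown are the windows of Dio2 and Dio3, the activating and the inactivating enzyme, whose levels moved differently, and the 2 found for Thrb, the receptor gene that rose. RefSeq begins the Thrb gene at base 17659225, upstream of both windows, so they do not cover that start. Capitals mark the cyclic AMP response element TGACGTCA, the receptor core motif AGGTCA and the TATA box TATAAA. Coordinates and strands are those of RefSeq on assembly GRCm38.p6, and the sequences run 5′ to 3′ along the gene's strand.

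Dio2, chr12:90738989-90739288, minus strand: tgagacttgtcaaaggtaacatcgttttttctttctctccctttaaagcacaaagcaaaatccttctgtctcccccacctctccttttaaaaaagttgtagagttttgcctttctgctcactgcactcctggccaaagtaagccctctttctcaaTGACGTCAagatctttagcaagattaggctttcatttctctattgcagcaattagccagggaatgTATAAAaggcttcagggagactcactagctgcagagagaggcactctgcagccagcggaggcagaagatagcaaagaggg
Dio3, chr12:110278980-110279279, plus strand: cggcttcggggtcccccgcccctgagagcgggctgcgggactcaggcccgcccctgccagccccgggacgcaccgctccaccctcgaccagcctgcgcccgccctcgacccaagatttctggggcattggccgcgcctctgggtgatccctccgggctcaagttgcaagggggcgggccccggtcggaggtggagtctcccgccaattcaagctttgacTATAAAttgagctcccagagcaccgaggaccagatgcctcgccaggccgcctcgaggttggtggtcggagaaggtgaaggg
Thrb, start 1, chr14:17660710-17661009, plus strand: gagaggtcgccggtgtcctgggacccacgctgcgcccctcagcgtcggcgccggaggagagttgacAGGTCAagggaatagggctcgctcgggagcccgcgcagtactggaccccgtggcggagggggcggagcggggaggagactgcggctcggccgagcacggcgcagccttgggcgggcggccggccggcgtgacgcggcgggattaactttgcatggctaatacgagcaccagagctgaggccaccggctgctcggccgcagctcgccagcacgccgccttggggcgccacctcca
Thrb, start 2, chr14:17981394-17981693, plus strand: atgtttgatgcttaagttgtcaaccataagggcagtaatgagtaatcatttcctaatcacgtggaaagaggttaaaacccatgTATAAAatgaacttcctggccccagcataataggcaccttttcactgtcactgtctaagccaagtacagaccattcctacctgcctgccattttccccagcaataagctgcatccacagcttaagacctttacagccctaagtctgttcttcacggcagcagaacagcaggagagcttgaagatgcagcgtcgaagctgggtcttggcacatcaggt

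The Dio2 window held TGACGTCA with its first base 95 bases before the start and TATAAA 30 bases before it. Among 32851 such windows of mouse genes, searched on both strands, 1.79% held TGACGTCA and 13.6% held TATAAA. The Dio3 window held TATAAA 31 bases before the start and no TGACGTCA. The window of Thrb start 1 held AGGTCA 184 bases before the start, as did 16.3% of all windows at some position, and that of start 2 held TATAAA 167 bases before it. None of the windows of these genes held 2 copies of AGGTCA in direct repeat with 4 bases between them, an arrangement that the receptors are known to bind, which was in 0.0152% of all windows. The motifs do not overlap in the sequences shown. They are described by their letters, and binding to them was not measured.

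Expression is given as log2 values that the authors made with RMA, which corrects background, brings arrays to a common scale and summarises the probes of a gene. A step of 1 is a change of 2-fold. Levels are compared between stages within a gene and not between genes, because probes of different genes differ in brightness. Changes are given as the later stage minus the earlier ± standard error (SE), from limma fitted to all 9 arrays, with p-values adjusted over 30915 entries and a threshold of 0.05. No detection calls were used here. As a guide to the low end of the signal, the 95th percentile of 1469 olfactory and vomeronasal receptor genes lay between 4.26 and 4.42 on 8 arrays and at 4.81 on E16.5 replicate 2. That array stood apart from the others, with a median over all entries of 5.05 against 4.79 to 4.85, so the second-day and both-day changes of the 6 genes are given with and without it.

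On the plotted arrays of the 6 genes, Dio2, Thrb and Slc16a10 rose over the 2 days and the other members did not pass the threshold. The increases came at different times. Slc16a10 rose on the first day, Dio2 on the second, and Thrb on both. From E14.5 to E16.5, 3 of the 6 members passed and all 3 were higher at E16.5, where 39.4% of all entries passed in either direction and 22.0% were higher. On the first day (E15.5 against E14.5) 2 members passed, both higher, beside 20.3% of all entries in either direction and 9.07% higher. On the second day (E16.5 against E15.5) 2 passed, both higher, beside 19.7% in either direction and 11.2% higher. By the test of any change over the 3 stages 3 members passed, against 35.1% of all entries. The arrays of a pair of stages did not overlap for 2 members between E15.5 and E14.5, beside 42.9% of all entries. They did not overlap for 5 members between E16.5 and E15.5, beside 32.5%, and for 5 between E16.5 and E14.5, beside 50.2%. Some of these counts depend on the array and the scaling, as the values of Dio1, Dio3 and Thra below show.

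**Figure D1:**
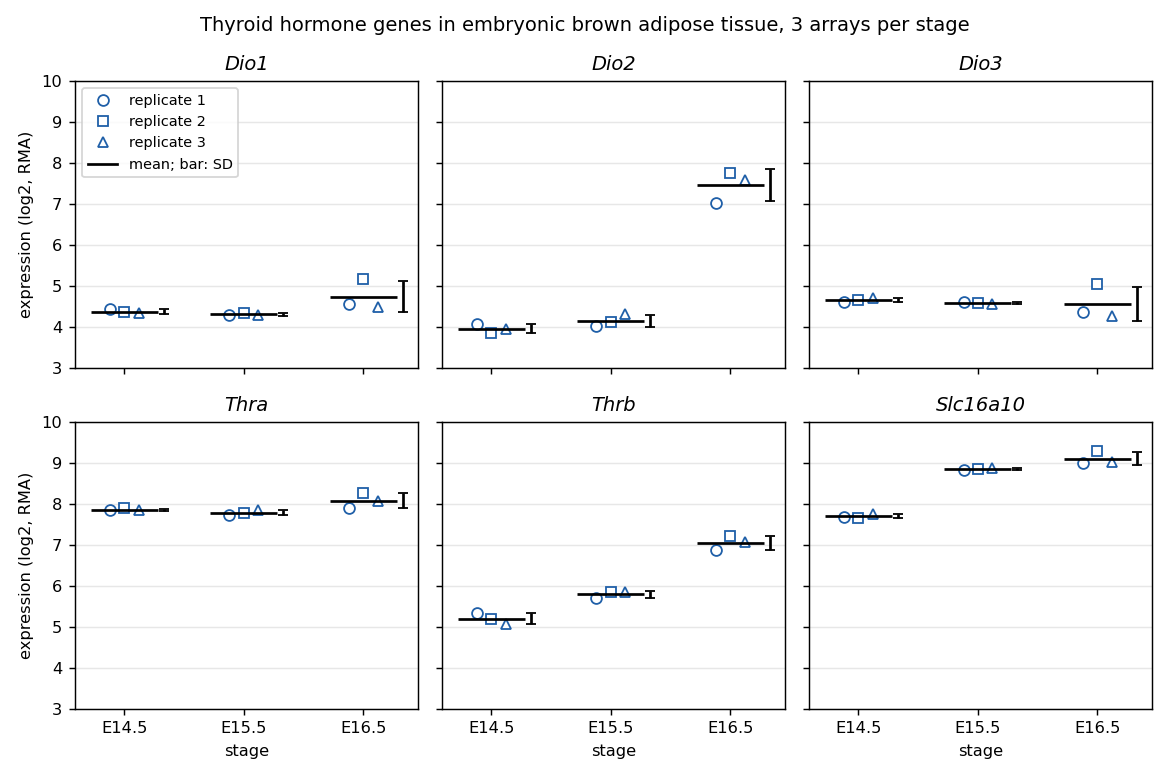
Expression (log2, RMA) of the 6 thyroid hormone genes on each array, by stage. Symbols are replicates, horizontal lines are stage means and bars are SDs of 3 arrays. Dio2 lies at 7.02 to 7.75 at E16.5 and at 4.31 or lower before, Thrb climbs at each stage, and Slc16a10 steps up at E15.5.

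Dio2 encodes the enzyme that makes active hormone inside the cell. Its log2 values were 4.06, 3.85 and 3.94 on the E14.5 arrays, 4.02, 4.12 and 4.31 on the E15.5 arrays, and 7.02, 7.75 and 7.59 on the E16.5 arrays. All 3 values at E16.5 lay far above the other 6, and the values of E14.5 and E15.5 overlapped. The stage means were 3.95 ± 0.11, 4.15 ± 0.15 and 7.46 ± 0.38 (SD, n = 3 each).

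On the second day Dio2 rose by 3.31 ± 0.17 in log2, or 9.92-fold (limma adjusted p = 1.21e-06). On the first day its change was 0.20 ± 0.17 (limma adjusted p = 0.557, 95% confidence interval -0.17 to 0.56). The second-day change exceeded the first-day change by 3.11 ± 0.29 (limma adjusted p = 2.37e-04), a contrast in which 5.21% of all entries passed. Without E16.5 replicate 2 the second-day rise was 3.16 (limma adjusted p = 6.97e-06) and that over both days 3.36. Over all alternatives run it lay between 3.13 and 3.53 and passed each time. The alternative that left out dim entries kept Dio2 only through its E16.5 values, so it is no separate support.

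The E14.5 and E15.5 values of Dio2 lay below the 95th percentile of the receptor genes of smell on each of the 6 arrays, so the starting level of Dio2 is a low-end value. With those arrays set to that percentile where it was higher, the E16.5 level was at least 8.40-fold that of E15.5 and at least 9.01-fold that of E14.5. The measured fold against E14.5 was 11.4 (log2 change 3.51 ± 0.17, limma adjusted p = 3.35e-08).

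**Figure D2:**
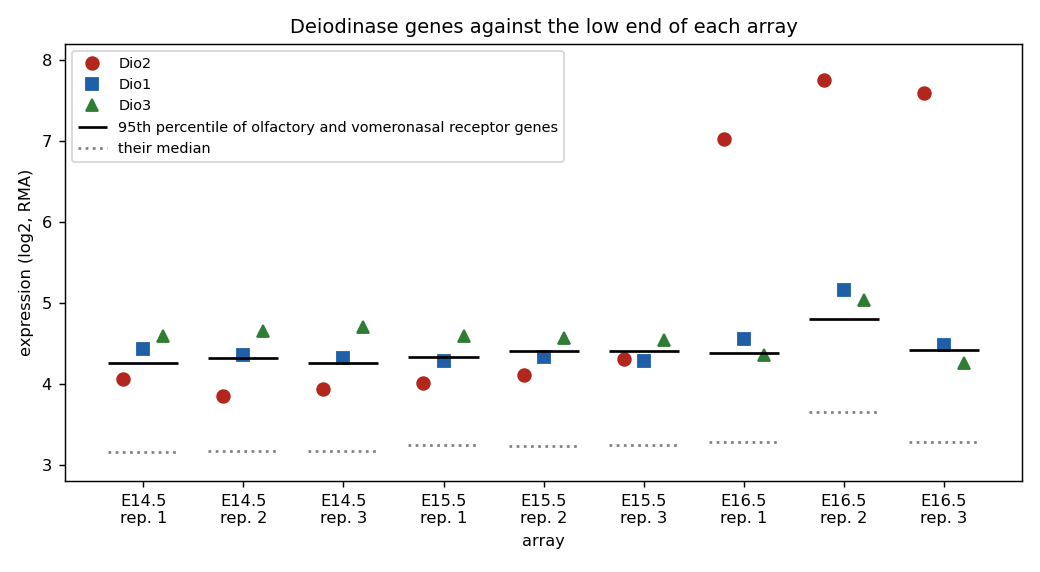
Expression (log2, RMA) of Dio2, Dio1 and Dio3 on each of the 9 arrays. Solid bars mark the 95th percentile and dotted bars the median over the 1469 receptor genes of smell on that array. Dio2 clears the solid bar on the 3 arrays of E16.5, while Dio1 and Dio3 stay near it, and both bars and genes are raised on E16.5 replicate 2.

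Dio3 encodes the inactivating deiodinase, which is known from fetal tissues and placenta. Its values were 4.60, 4.66 and 4.70 at E14.5, 4.60, 4.57 and 4.55 at E15.5, and 4.36, 5.03 and 4.26 at E16.5. At E16.5 replicate 2 was the highest of all 9 arrays while replicates 1 and 3 were the lowest, so the stage straddled the others. The change from E15.5 to E16.5 was -0.02 ± 0.17 (limma adjusted p = 0.939, 95% confidence interval -0.39 to 0.35), and that from E14.5 to E16.5 was -0.10 ± 0.17 (adjusted p = 0.636).

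Without E16.5 replicate 2 the same changes of Dio3 were -0.26 (limma adjusted p = 0.0107) and -0.34 (limma adjusted p = 0.00139), both past the threshold. The direction and the call therefore rest on 1 array. With E16.5 replicate 1 or 3 left out the second-day values were 0.07 and 0.12, and neither passed. Dio3 was above the low-end guide on 7 of the 9 arrays, at the 93.0th to 97.4th percentile of the receptor genes of smell, so its level is near the low end of what these arrays measured.

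Dio1 had 4.43, 4.36 and 4.32 at E14.5, 4.28, 4.33 and 4.29 at E15.5, and 4.56, 5.16 and 4.49 at E16.5. The 3 values of E16.5 were above the other 6, by little except on replicate 2. The second-day change was 0.44 ± 0.15 (limma adjusted p = 0.0682), the first-day change -0.07 ± 0.15 (adjusted p = 0.861) and the change over both days 0.36 ± 0.15 (adjusted p = 0.0776).

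The second-day change of Dio1 passed without E16.5 replicate 2, at 0.22 (limma adjusted p = 0.0208). It also passed without E16.5 replicate 1 or 3, at 0.52 and 0.56, and with quantile normalization or median centring, at 0.36 each. Over both days it passed without E16.5 replicate 1 (0.45) or 3 (0.49) and was 0.15 without replicate 2 (adjusted p = 0.0664). Dio1 was above the low-end guide on 6 of the 9 arrays and on none of the E15.5 arrays. Its change is small beside that of Dio2 on the same day, whose intervals were 2.94 to 3.68 for Dio2 and 0.10 to 0.77 for Dio1.

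The receptor genes differed. Thrb encodes the beta receptors, which in mouse brown fat are known to serve the hormone's action on Ucp1. It had 5.34, 5.19 and 5.07 at E14.5, 5.70, 5.85 and 5.84 at E15.5, and 6.88, 7.22 and 7.06 at E16.5. The 3 stages did not overlap, and every array was above the low-end guide. Stage means were 5.20 ± 0.13, 5.80 ± 0.08 and 7.06 ± 0.17 (SD, n = 3 each).

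Thrb rose by 0.60 ± 0.11 on the first day, or 1.51-fold (limma adjusted p = 0.00195), and by 1.26 ± 0.11 on the second, or 2.39-fold (limma adjusted p = 2.18e-05). Over both days it rose 3.61-fold (log2 change 1.85 ± 0.11, limma adjusted p = 1.49e-07). These calls held under every alternative run, and without E16.5 replicate 2 the second-day and both-day rises were 1.17 and 1.77. The second-day change was larger than the first by 0.66 ± 0.19, which did not pass (limma adjusted p = 0.0740). It did pass without E16.5 replicate 1 (0.75) or 2 (0.58), with quantile normalization (0.58), median centring (0.58) or array weights (0.55), and with dim entries left out (0.66).

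Thra encodes the alpha receptors. Its values were 7.85, 7.89 and 7.85 at E14.5, 7.73, 7.78 and 7.86 at E15.5, and 7.90, 8.28 and 8.08 at E16.5. The 3 values of E16.5 were the highest, the lowest of them barely above the highest of E14.5, and E14.5 and E15.5 overlapped. The changes were -0.07 ± 0.10 on the first day (limma adjusted p = 0.760), 0.29 ± 0.10 on the second (limma adjusted p = 0.0652) and 0.22 ± 0.10 over both (limma adjusted p = 0.103).

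The second-day value of Thra passed without E16.5 replicate 1 (0.39), with quantile normalization (0.27), median centring (0.22), a trend in the variance model or dim entries left out (0.29 each). Over both days it passed without E16.5 replicate 1 (0.31) and with quantile normalization (0.22). Without E16.5 replicate 2 the changes were smaller, 0.20 on the second day (limma adjusted p = 0.0782) and 0.12 over both (limma adjusted p = 0.201), and neither passed. The table had 1 value for each receptor gene, so the hormone-binding and the non-binding splice forms of Thra, and the forms from different starts of Thrb, were not told apart. In RefSeq the end of Thra overlaps Nr1d1, a clock repressor gene read from the opposite strand, which changed by 0.56 ± 0.09 on the second day (limma adjusted p = 0.00160). The sources used here do not say which probes lie in the overlap, and their part in the Thra value was not tested.

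Slc16a10 encodes MCT10, a carrier of aromatic amino acids that also moves thyroid hormones. It had 7.69, 7.65 and 7.76 at E14.5, 8.83, 8.85 and 8.89 at E15.5, and 8.999, 9.29 and 9.04 at E16.5. The stages did not overlap, but the gap between E15.5 and E16.5 was narrow. Slc16a10 rose by 1.16 ± 0.09 on the first day, or 2.23-fold (limma adjusted p = 6.12e-06). The second-day change was 0.25 ± 0.09 (limma adjusted p = 0.0860), and it passed with quantile normalization (0.21, limma adjusted p = 0.0291) or with dim entries left out (0.25, limma adjusted p = 0.0445). Without E16.5 replicate 2 it was 0.16 and did not pass (limma adjusted p = 0.0741). Over both days the gene rose 2.65-fold (log2 change 1.41 ± 0.09, limma adjusted p = 3.52e-07), and the log2 change was 1.32 without that array.

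The second-day change of Slc16a10 was smaller than its first-day change by a difference of -0.91 ± 0.16 (limma adjusted p = 0.00847). The call ended without E15.5 replicate 2 (-0.91, adjusted p = 0.0538) or E15.5 replicate 3 (-0.88, adjusted p = 0.0577), with the size little moved. First-day and second-day changes share the E15.5 arrays, so an error there enters both with opposite sign.

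**Figure D3:**
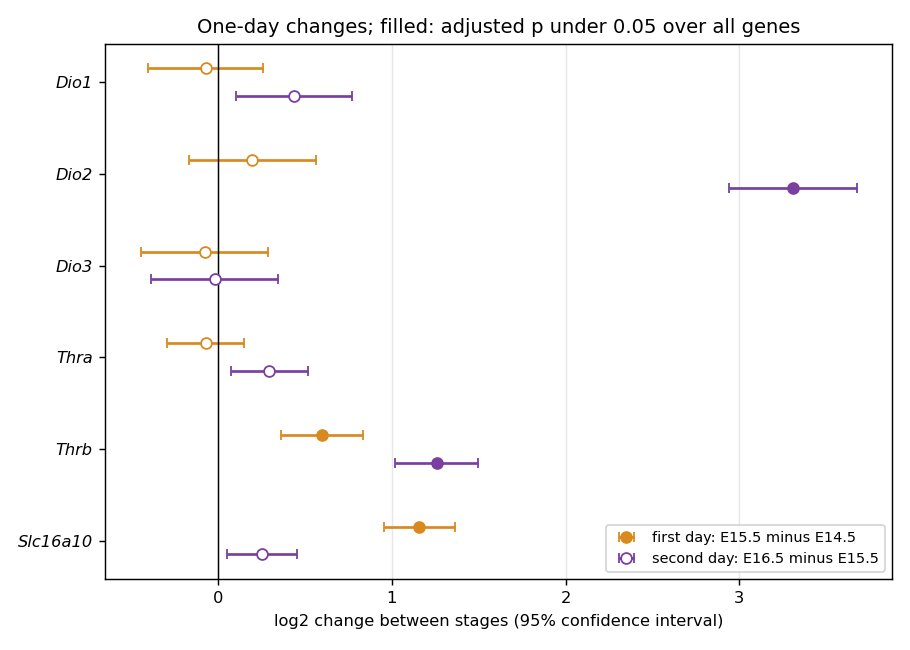
Log2 change of each gene on the first day (E15.5 minus E14.5) and the second day (E16.5 minus E15.5), with 95% confidence intervals from limma. Filled symbols passed an adjusted p of 0.05 over all entries. Slc16a10 passed on the first day alone, Dio2 on the second alone, and Thrb on both.

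The median entry of the deposited table moved by 0.14 from E14.5 to E16.5. It moved by 0.0068 after quantile normalization, which by design gives all arrays the same spread of values. Without E16.5 replicate 2 the deposited median moved by 0.038 over both days and by 0.0034 on the second day, against 0.0992 on the second day with that array. Among the brighter entries, those at or above the median mean level, the median change was 5e-06 over both days and 0.024 on the second. The shift of the median entry is thus not one of the whole scale. The E16.5 minus E14.5 changes were also taken relative to the median of all entries on all arrays. They were 3.37 for Dio2, 1.72 for Thrb, 1.27 for Slc16a10, 0.23 for Dio1, 0.08 for Thra and -0.24 for Dio3. The same value was taken from every gene, so this step could not change their order.

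Genes whose array profiles lay closest to each riser were found by the root mean square (RMS) difference over the 9 arrays, after each gene was centred on its own mean. For Dio2 they were Cpn2, a carboxypeptidase subunit (RMS difference 0.25), the mitochondrial carrier gene Slc25a35 (0.35), Agmo, which cleaves ether lipids (0.36), and Ifi27, an interferon-inducible gene (0.36). Their second-day rises were 3.23, 2.81, 2.54 and 2.58. For Thrb the closest were Arhgef28, a guanine nucleotide exchange factor (0.0704), the retinal reductase gene Dhrs3 (0.0706), Mccc1, an enzyme of leucine breakdown (0.0855), and Smkr-ps (0.0956). For Slc16a10 the closest 4 included, at ranks 3 and 4, the transcription elongation inhibitor Hexim1 (0.0605) and the inositol phosphatase Impa2 (0.0747). The neighbours of Dio2 lay farther from it than those of the other genes from theirs, in RMS difference.

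**Figure D4:**
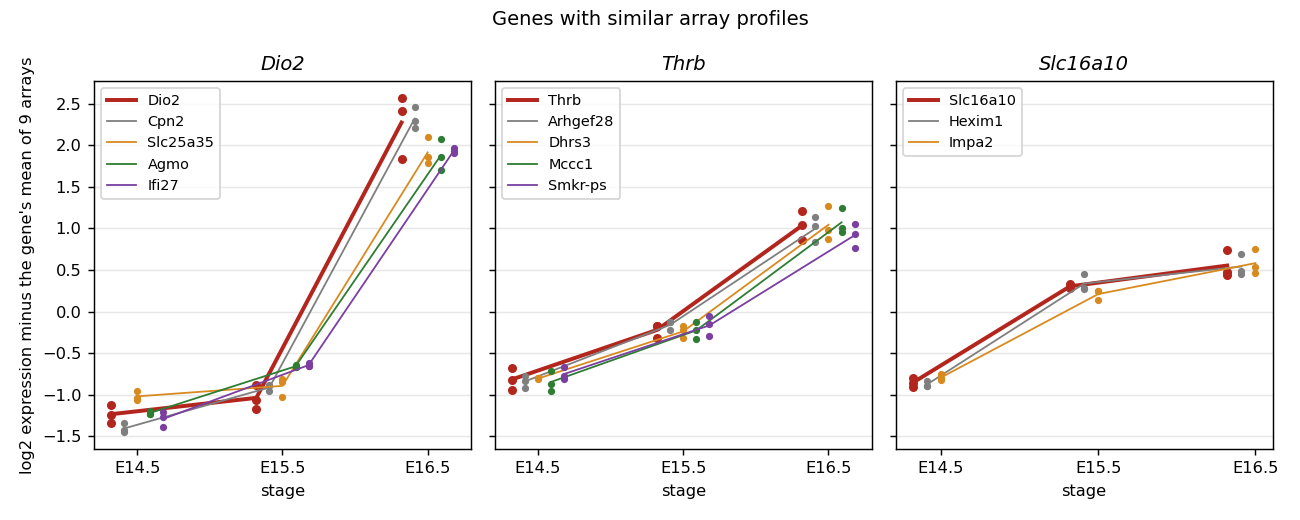
Log2 expression of Dio2, Thrb and Slc16a10 and of genes near to each, minus each gene's mean over the 9 arrays, by stage. Shown are the 4 nearest for Dio2 and Thrb, and those ranked 3 and 4 of the 4 nearest for Slc16a10. Points are arrays and lines join stage means. The Dio2 group turns up at E16.5, the Thrb group climbs over both days and the Slc16a10 group climbs mainly on the first day. The genes were picked for this likeness on the same arrays, so the shared course is no separate result.

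Beyond these members, 95 other genes were listed by role in or beside thyroid hormone action, and all 95 were measured. Some of them, such as Gatm and Aldh1a1, are described below by other functions. From E14.5 to E16.5, 37 rose, 27 fell and 31 did not pass, with a median log2 change of 0.11, beside 0.14 over all entries. On the first day 18 rose and 18 fell, beside 9.07% of all entries higher and 20.3% in either direction. On the second day 24 rose and 18 fell, beside 11.2% higher and 19.7% in either direction. The 18 falls of the second day numbered 11 when replicate 3 of E14.5 was dropped, and 10 and 11 when replicates 1 and 2 of E15.5 were. The lists are small and were chosen with earlier results of these data known, so their counts are descriptions. For the lists, changes are E16.5 minus E14.5 unless another day is named. Beside every list count over both days, here and for the markers below, 22.0% of all entries were higher and 39.4% passed in either direction.

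Among 9 other transporters, 1 rose and 3 fell. Slc7a5, the large neutral amino acid carrier LAT1, fell (log2 change -1.23 ± 0.08, limma adjusted p = 2.80e-07), with -0.01 on the first day and -1.23 on the second. Its heavy chain partner Slc3a2 (-0.44) and the related Slc7a8 (-0.66) also fell. Slco2b1, an organic anion carrier, rose by 0.45 ± 0.13 (limma adjusted p = 0.0184). It no longer passed when E14.5 replicate 2 or 3 was dropped (0.43 each), and 0 transporters of the list were then higher. Without E16.5 replicate 1 or 3 the rises numbered 2.

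Binding and further metabolism gave 3 higher and 2 lower of 9 genes. Crym, a cytosolic binding protein for triiodothyronine, fell (-1.31 ± 0.16, limma adjusted p = 5.19e-05). Sult1a1, which sulfates phenols including iodothyronines, rose (2.64 ± 0.09, limma adjusted p = 5.89e-09). The list also held Gatm, an enzyme of creatine synthesis, which fell (-1.28). The plasma carrier Ttr (0.29) and the retinal dehydrogenase Aldh1a1 (0.54) passed weakly. Ttr failed when any 1 of 6 arrays was dropped, replicates 1 and 2 of E14.5 (0.20 and 0.33), 2 and 3 of E15.5 (0.29 each) and 1 and 3 of E16.5 (0.27 each). Aldh1a1 failed when replicate 3 of E14.5 (0.42) or replicate 1 or 2 of E16.5 (0.51 and 0.42) was dropped. Only 1 gene of the list was higher without E16.5 replicate 1. Ttr was above the low-end guide on 0 of the 9 arrays.

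Deiodinases carry selenocysteine, an amino acid placed by a dedicated machinery. Of 10 genes of selenoprotein synthesis, 6 rose and 3 fell. Sephs2, which makes the selenium donor, rose by 2.60 ± 0.09 (limma adjusted p = 5.76e-09), with array values of 8.24, 8.26 and 8.30 at E14.5, 9.66, 9.64 and 9.64 at E15.5 and 10.70, 11.04 and 10.86 at E16.5. Sepsecs and Pstk, which convert the serine on the selenocysteine tRNA, rose by 1.40 ± 0.10 and 0.94 ± 0.08. Secisbp2, which binds the selenocysteine signal of the mRNA, had -0.05 ± 0.11 (limma adjusted p = 0.716). The falls were those of Lrp8 (-0.53), Eefsec (-0.37) and Sephs1 (-0.26). All 3 were fragile, since Lrp8 lost its call without E14.5 replicate 2 (-0.48), Sephs1 without E14.5 replicate 1 or 2 (-0.25 and -0.26), and Eefsec without E14.5 replicate 1, 2 or 3 or E16.5 replicate 3 (-0.37, -0.37, -0.37 and -0.38). The list then had 1 fall without E14.5 replicate 1 and 0 without E14.5 replicate 2. Of this list, 3 genes rose on the first day and 1, Lrp8, fell (-0.61), beside 9.07% of all entries higher and 20.3% in either direction. Dio2 did not pass on that day.

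Of 8 genes that act on the turnover of the type 2 deiodinase protein, 2 rose and 1 fell. Wsb1, the ubiquitin ligase adaptor that marks the enzyme for breakdown, fell by 1.40 in log2 (SE 0.12, limma adjusted p = 2.73e-06), with -0.82 on the first day and -0.58 on the second. The ligase gene March6 and the conjugating enzyme gene Ube2j1 had 0.42 and 0.39. These are transcript values, and protein was not measured.

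Among RXR partners and corepressors, 3 of 10 rose and 2 fell, and 5 fell without E16.5 replicate 2. Rxrg rose by 2.06 ± 0.13 (limma adjusted p = 2.98e-07) and Rxrb by 0.85 ± 0.12, while Rxra had 0.01 ± 0.09 (limma adjusted p = 0.933). Tbl1x, a subunit of corepressor complexes, was among the 2 that fell (-0.48). Ncor1, a main corepressor of these receptors, had -0.18 ± 0.07 (limma adjusted p = 0.0769), which passed without E16.5 replicate 2 (-0.18, limma adjusted p = 0.0264), after quantile normalization (-0.29) and after each array was centred on its median (-0.24). The corepressor-bound deacetylase Hdac3 (0.31) lost its call without any 1 of the E14.5 arrays (0.31, 0.32 and 0.31 without replicates 1, 2 and 3).

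Coactivators gave 5 higher and 7 lower of 13. Ppargc1a and Ppargc1b, coactivators of mitochondrial genes, rose by 3.21 ± 0.09 and 2.53 ± 0.11, and the acetyltransferase Kat2b by 1.13 ± 0.11. Carm1 (-0.83), Ncoa3 (-0.72) and Crebbp (-0.63) fell. Most of the rise of Ppargc1a came on the first day (0.78 on the second day and 2.43 on the first).

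In the list of genes known to respond to thyroid hormone in some tissue, 10 of 15 rose and 2 fell. Of all entries 22.0% were higher and 39.4% passed in either direction. The median change of the list was 0.46, beside 0.14 over all entries. The list counts were the same without E16.5 replicate 2. Ucp1 rose by 1.06 ± 0.12 on the first day and 3.70 ± 0.12 on the second. On its arrays it had 4.23, 4.65 and 4.50 at E14.5, 5.55, 5.55 and 5.48 at E15.5 and 9.002, 9.37 and 9.29 at E16.5. Klf9, a factor whose gene is a direct receptor target in several tissues, had 0.18 ± 0.12 on the first day (limma adjusted p = 0.423) and rose by 1.27 ± 0.12 on the second (limma adjusted p = 3.87e-05). Thrsp, a lipogenic protein named for its hormone response, rose by 1.60 ± 0.22 and 2.17 ± 0.22 on the 2 days. The gluconeogenic enzyme Pck1 rose by 5.80 over both days and malic enzyme Me1 by 0.42, while Fasn (-0.35) and the calcium pump Atp2a2 (-0.46) fell. By day, Fasn fell on the first (-0.69) and rose on the second (0.34), and Me1 had -0.08 and 0.51. The second-day rise of Fasn did not pass without E15.5 replicate 3 (0.26) or E16.5 replicate 3 (0.30). All of these genes also answer to other signals, and hormone was not measured.

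Of 11 genes of adrenergic and cyclic AMP signalling to Dio2, 6 rose and 2 fell. Tshr, the receptor for thyrotropin, which fat cells also express, rose by 3.22 ± 0.12 (limma adjusted p = 7.75e-09). The beta 3 adrenergic receptor gene Adrb3 rose by 1.79 ± 0.15 and the protein kinase A subunit Prkar2b by 1.77 ± 0.08. Adcy3, an adenylyl cyclase, fell (-1.25 ± 0.10) and the element-binding factor Creb1 had a small fall (-0.33 ± 0.08). Tshr and Adrb3 had already risen on the first day, by 2.08 and 1.02, when Dio2 had 0.20.

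**Figure D5:**
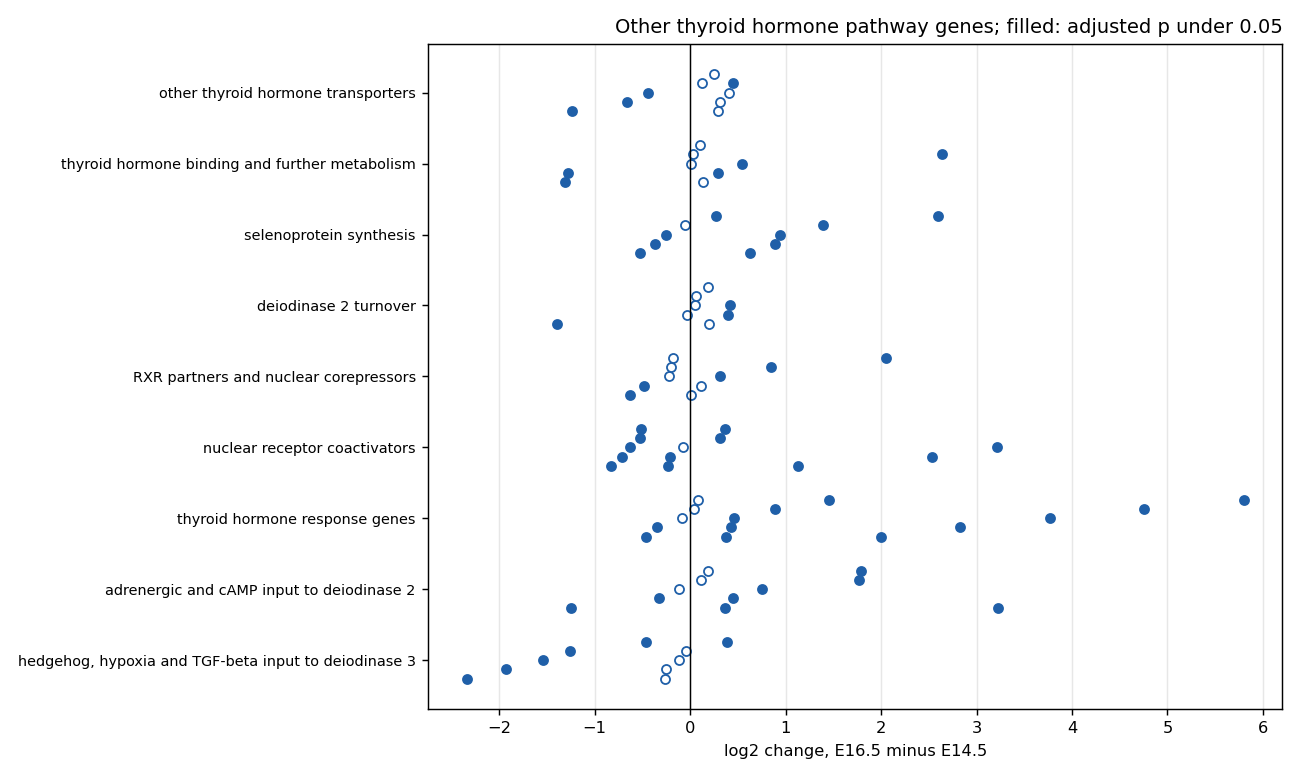
Log2 change, E16.5 minus E14.5, of the 95 other genes listed in or beside thyroid hormone action, 1 point a gene, in 9 lists by role. Filled points passed an adjusted p of 0.05 over all entries. Response genes reach 5.80 (Pck1), and the genes of the hedgehog, hypoxia and TGF-beta pathways lie mostly below 0.

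Hedgehog, hypoxia and TGF-beta signals are known to raise Dio3 in other cells. Of 10 genes of these pathways, 1 rose and 5 fell. Gli1 (-0.26) and Hif1a (-0.12) were among those that did not pass. The activity of the pathways was not measured, and the direction of a single transcript does not give it. Gli3 and Gli2, hedgehog transcription factors, fell (-2.33 ± 0.10 and -1.93 ± 0.09), as did the receptor Tgfbr1 (-1.54 ± 0.09), while Ptch1 rose by 0.38 ± 0.10. Dio3 also lies at the end of the imprinted Dlk1-Dio3 locus. Of 9 genes of or beside that locus, 1 rose and 7 fell, with a median of -1.68. Meg3, its maternally expressed non-coding RNA, fell (-2.16 ± 0.12), as did Mirg (-2.24) and Begain (-2.27), and Dlk1 fell by 0.81 in log2 (SE 0.11, limma adjusted p = 1.06e-04). The 1 rise, of Wdr25 (0.41), ended without E14.5 replicate 3 (0.31), and 2 rose without E16.5 replicate 1. Dio3os, the antisense neighbour of Dio3, was chosen after its values were seen. It had 5.60, 5.63 and 5.87 at E14.5, 5.55, 5.97 and 5.96 at E15.5 and 5.05, 5.10 and 5.01 at E16.5, with a second-day change of -0.78 ± 0.12 (limma adjusted p = 0.00100).

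The tissue label was set against marker genes. Of 14 brown adipocyte markers, which include Dio2 and Ucp1, 11 were above the low-end guide on all arrays at E14.5, 13 at E15.5 and 14 at E16.5. Dio2 and Elovl3 were the markers below it on every E14.5 array. From E14.5 to E16.5, 13 of the 14 rose and Zic1 fell, beside 22.0% higher and 39.4% in either direction of all entries. Over the same days 11 of 12 skeletal muscle markers, 11 of 11 mesenchymal progenitor markers, 7 of 8 macrophage markers and 4 of 9 neuron and Schwann cell markers fell and none of these lists had a rise. Without E16.5 replicate 2 those falls numbered 11, 11, 8 and 6, and 1 neuron and Schwann cell marker rose without E16.5 replicate 3. The mean over the muscle markers was 9.88 to 9.96 on the E14.5 arrays, 8.50 to 8.74 at E15.5 and 8.10 to 8.49 at E16.5. That of the progenitor markers was 10.83 to 10.86, 10.06 to 10.18 and 9.46 to 9.57. In bulk tissue, fewer cells of a type and less RNA per cell cannot be told apart, and the part of these shifts in the changes of Dio2, Thrb, Slc16a10 and Crym was not tested.

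Endothelial markers gave 3 higher and 1 lower of 8 (1 higher without E14.5 replicate 3, 2 lower without E16.5 replicate 2). Erythroid markers gave 4 and 2 of 8. Cartilage and bone gave 2 and 3 of 8, with 1 higher when any single E14.5 array, replicate 1 or 3 of E15.5, or replicate 3 of E16.5 was dropped. Epidermis gave 1 and 0 of 7, with 0 higher without E14.5 replicate 2 or 3 or E16.5 replicate 2 or 3, and 1 lower without E16.5 replicate 2. Of 8 markers of the thyroid gland, 3 rose (Foxe1, Pax8 and Duox2), each by 0.41 or less, and 0 fell. Pax8 was above the low-end guide on 0 of the 9 arrays and Duox2 on 1. Duox2 lost its call without any 1 of the E14.5 arrays (0.29, 0.36 and 0.35 without replicates 1, 2 and 3). It also lost it without E15.5 replicate 3 (0.34) or E16.5 replicate 2 (0.22). Of the 8, 3 were above the low-end guide on all arrays at E14.5, 2 at E15.5 and 2 at E16.5. The thyroid factor gene Foxe1 was above it on 9 of the 9 arrays and the precursor gene Tg on 5. The thyroid factors Pax8 and Nkx2-1 and the iodide and chloride exchanger Slc26a4 were below the low-end guide on all 9 arrays. Tg had stage means of 4.39, 4.34 and 4.51.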

How the data were processed

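Expression in embryonic brown fat was measured on MoGene-2_0-st arrays. Per the submitters' processing notes, Partek 7.0 and RMA gave the deposited log2 expression values, and the table held 30915 entries, 1 per symbol. The sources used here do not give how probes became symbols, nor the build and annotation. From these values limma 3.58.1 in R 4.3.3 was fitted with stage as the only term (6 residual and 4.59 prior degrees of freedom), and 2-sided p-values were adjusted by the Benjamini-Hochberg method over all entries. The fit was tested on simulated data. The members, the 21 gene lists, the named genes and the tests were chosen with earlier results of these data known. The named genes were the members, up to 3 risers and 3 fallers of each list over both days, a fixed panel, and the 4 named genes nearest in profile to each member that passed the F-test and whose stage means spanned at least 1 in log2, without Gm, Rik, LOC, Mir and Snor entries. Dio3os was added after its values were seen. All 198 listed genes were matched, 1 under an older symbol. Symbols and promoters came from RefSeq, GRCm38.p6. Alternatives were quantile normalization, median centring, dim entries left out, a variance trend with a robust prior, array weights, fits to the compared stages alone, a replicate block and leaving out each array. The number of arrays limits the precision. Some genes of the lists and of the naming rule are not reported here by name.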

Additional observations from a re-analysis of the deposited data

Results flagged for a closer look

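For 2 of the 6 genes the change on the second day differed from that on the first by the test of the difference itself. Dio2 had a difference of 3.11 ± 0.29 in log2 (limma adjusted p = 2.37e-04), since its change was 3.31 on the second day and 0.20 on the first. It was 2.92 to 3.33 over 15 alternatives and passed in all of them, including the fit without dim entries, which kept Dio2 only through its E16.5 values. Slc16a10 had a difference of -0.91 ± 0.16 (limma adjusted p = 0.00847), since its change was 0.25 on the second day and 1.16 on the first. It was -0.999 to -0.853 over the alternatives and did not pass without E15.5 replicate 2 or 3, at adjusted p = 0.0538 and 0.0577. The E15.5 arrays enter both days, and 5.21% of all entries passed this test.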

How the results depend on the processing

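The calls of Dio2 (second day and both days), Thrb (each day and both days) and Slc16a10 (first day and both days) held under all alternatives run, and no called change of a member changed sign. The number of members called on the second day was 2, beside 19.7% of all entries. It was 5 with quantile normalization (beside 24.6%), 4 with median centring (beside 24.3%), 5 with dim entries left out (beside 37.0% of the entries kept), and 2 to 4 when single arrays were left out. Dio2 and Dio1 had E14.5 and E15.5 means below the dim limit of 4.38 and were kept through E16.5, where they were highest. Their calls with dim entries left out are therefore no separate support. Over both days the number of members called was 3 (beside 39.4% of all entries), and 3 to 5 without single arrays. It was 4 with median centring (beside 7167 entries higher and 6575 lower) and 4 with quantile normalization (beside 6087 and 6679). For any change it was 3 (beside 35.1%), 5 with median centring and 3 to 5 without single arrays. For the second-day minus first-day change it was 2 (beside 5.21%), and 1 to 3 without single arrays. With median centring or quantile normalization 2 members were higher and 1 lower in that contrast. In that contrast the other listed genes, in or beside thyroid hormone action, that were called numbered 10. They were 17 with quantile normalization, 16 with dim entries left out, 17 with a variance trend, 24 with array weights and 6 to 22 without single arrays. All entries called in it were 1610, but 2626 with quantile normalization, 3825 with array weights and 606 to 3361 without single arrays. On the first day all entries called were 6275, 10026 with array weights and 4880 to 9053 without single arrays. On the second day 3461 entries rose and 2615 fell, against 3466 and 4039 with median centring, and in the second-day minus first-day change 864 were higher and 746 lower, against 1005 and 1345. No sign of pairing by replicate number was seen. The deviations of same-numbered arrays correlated at -0.13 to 0.10, beside -0.13 to 0.11 for arrays with different numbers. With 3 arrays per stage this cannot show that the numbers share no batch. With a replicate block the members called were 2 on the first day, 2 on the second and 3 over both days, and all entries called were 6074, 5817 and 12152. The cause of these shifts was not tested. Dio2 was above the low-end guide on 3 of the 9 arrays, Dio1 on 6 and Dio3 on 7, so signal over background limits these 3 genes.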
